A study of Mus musculus with 12 samples.

Results

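Toll-like receptors are membrane proteins that sense microbial and self molecules, and the set described here is 10 genes: the receptors Tlr1, Tlr2, Tlr3, Tlr4, Tlr6, Tlr7, Tlr8, Tlr9 and Tlr13, with Myd88, the adaptor through which most of them signal. The rows were found by matching Ensembl IDs of the count table to these mouse symbols in the GENCODE M21 annotation of mm10. All 10 were found among 39017 gene IDs, and all 10 passed the filter on low counts that left 15015 genes for testing.

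RNA bound to microglial ribosomes was sequenced from spinal cords of C57BL/6 females in which experimental autoimmune encephalomyelitis (EAE), a mouse model of multiple sclerosis, had been induced. The 12 libraries are 6 labelled Kdm6a cKO (conditional knockout, cKO 1 to 6) and 6 labelled wildtype (WT 7 to 12), and all 12 carry Tmem119-Cre with RiboTag, per the labels. Cre recombinase expressed from Tmem119, a gene of microglia, switches on a tagged ribosomal protein, so that ribosomes of those cells can be pulled out of the whole tissue. Kdm6a is an X-linked gene for an enzyme that removes a repressive methyl mark from histone H3, and the comparison asks how microglial transcripts differ without it during EAE. The sources used here give no age, no day of EAE and no link from library to animal, and so p-values measure the spread between libraries, which may be technical in part.

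In macrophages and microglia, TLR2 pairs with TLR1 or TLR6 at the cell surface to bind bacterial lipopeptides, and TLR4 binds lipopolysaccharide. TLR3, TLR7, TLR8, TLR9 and TLR13 sit in endosomes and sense nucleic acids. MyD88 carries the signal to NF-kB, while TLR3 uses the adaptor TRIF, the product of Ticam1, and TLR4 uses both adaptors.

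Of the 10 genes, Tlr1 was the only one that passed the all-gene test, and it was lower in cKO. Tlr9 was lower in every cKO library than in any WT library but did not pass. These 2 genes carry the results below, so the promoters of Tlr1, which has a pair of start sites in RefSeq, and of Tlr9 are shown with that of Tlr12, another mouse Toll-like receptor gene that was lower in cKO. Each window runs from 250 bases before the start to 50 after it, 5′ to 3′ on the strand of the gene, from RefSeq on GRCm38.p6, the assembly that mm10 holds. Capitals mark matches, on either strand, to GAGGAA (a core of the macrophage factor PU.1), TGANTCA (AP-1), CACGTG (an E-box) or a pair of GAAA with any 2 bases between them (an interferon-stimulated response element, ISRE).
Tlr1, first start, chr5:64933509-64933808, minus strand: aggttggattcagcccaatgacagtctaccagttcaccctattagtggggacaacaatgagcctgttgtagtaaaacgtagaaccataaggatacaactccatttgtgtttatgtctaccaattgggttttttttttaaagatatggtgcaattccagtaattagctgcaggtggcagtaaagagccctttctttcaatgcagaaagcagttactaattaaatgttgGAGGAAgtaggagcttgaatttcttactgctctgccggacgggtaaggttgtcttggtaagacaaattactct
Tlr1, second start, chr5:64932650-64932949, minus strand: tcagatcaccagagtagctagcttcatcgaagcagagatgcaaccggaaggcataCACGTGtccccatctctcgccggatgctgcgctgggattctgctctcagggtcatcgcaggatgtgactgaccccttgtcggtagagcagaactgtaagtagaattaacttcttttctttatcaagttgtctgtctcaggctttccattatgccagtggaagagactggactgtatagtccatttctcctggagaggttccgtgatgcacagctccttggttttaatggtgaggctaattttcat
Tlr9, chr9:106222348-106222647, plus strand: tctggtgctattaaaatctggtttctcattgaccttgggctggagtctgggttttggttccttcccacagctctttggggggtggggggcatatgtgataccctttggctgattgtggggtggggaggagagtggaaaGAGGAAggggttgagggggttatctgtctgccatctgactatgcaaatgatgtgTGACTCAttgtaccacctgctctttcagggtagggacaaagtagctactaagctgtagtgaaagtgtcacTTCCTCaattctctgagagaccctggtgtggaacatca
Tlr12, chr4:128618570-128618869, minus strand: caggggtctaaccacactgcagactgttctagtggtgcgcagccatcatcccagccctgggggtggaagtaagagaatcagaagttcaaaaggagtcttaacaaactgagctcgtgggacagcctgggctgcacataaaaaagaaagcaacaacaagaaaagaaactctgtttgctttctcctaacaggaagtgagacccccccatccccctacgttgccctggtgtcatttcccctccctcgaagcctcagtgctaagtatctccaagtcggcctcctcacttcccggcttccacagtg
The first Tlr1 window held 1 PU.1 match at -23 from the start, and the second held 1 E-box at -195. That of Tlr9 held 2 PU.1 matches, at -112 and 12, and an AP-1 match at -58. That of Tlr12 held none of the 4. Among the windows not shown, that of Tlr11, also lower in cKO, held 2 PU.1 matches, at -133 and 25, and an ISRE at -122. Those of Tlr8 and Tlr13 held 1 PU.1 match each, at -77 and -83, that of Myd88 held an ISRE at -40, and the second start of Tlr6 held 2 that overlap, at -116 and -110. Those of Tlr2, Tlr3 and Tlr5 and the first start of Tlr6 held none. Over all 32851 RefSeq windows of this length, 28.3% held a PU.1 match, 7.81% an AP-1 match, 7.15% an E-box and 3.44% an ISRE. A match is a run of letters and not a measured binding site. Windows were found for 8 of the 10 genes.

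Total counts per library ran from 19040115 in cKO 1 to 26296071 in WT 7, and 3 counts, the level taken as the floor of detection, came to 0.109 to 0.157 CPM (reads of a gene relative to the TMM-scaled size of the library). Kdm6a was read at 1.59 to 4.50 CPM in cKO and 3.35 to 6.19 CPM in WT (log2 fold change -0.70 ± 0.25, SE, n = 6 per group, adjusted p = 0.117, edgeR quasi-likelihood test). The library labelled cKO 2 had the 4.50 CPM, within the WT range, so that Kdm6a gives no check of that label, and counts over the whole gene include exons that may be left in place. All 10 microglial markers were read, with summed levels of 8657 to 19879 CPM in cKO, lowest in cKO 5, and 11322 to 13165 CPM in WT. Neuron markers summed to 211 to 625.4 CPM in cKO and 195 to 281 CPM in WT, with the highest sums in cKO 2, cKO 1 and cKO 4. Oligodendrocyte markers summed to 1698 to 2454 CPM in cKO and 2075 to 2477 CPM in WT, highest in WT 7 and then cKO 3. Sums were 423 to 586 CPM in cKO and 464 to 509 CPM in WT for astrocytes. For Schwann cells they were 150 to 324 and 290 to 337 CPM, and for endothelial and mural cells 47.1 to 291 and 71.6 to 127 CPM, cKO first. The first principal component of neuron, glial, Schwann, endothelial and mural cell markers, called the CNS marker component, was 1.31 in cKO 1, 2.02 in cKO 2 and 1.36 in cKO 4, and the other 9 libraries had -0.10 or less. Results are therefore given with and without those libraries where this ends a call or turns a direction.

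Most markers of other immune cells that carry Toll-like receptors averaged under 1 CPM. Of 7 B and plasma cell markers 2 averaged at least 1 CPM, Cd79b and Ighm. Cd79b had 10.9 to 20.3 CPM in cKO and 7.89 to 13.8 CPM in WT. Ighm had 323 to 657 CPM in cKO and 180 to 270 CPM in WT. It was called higher (log2 fold change 1.04 ± 0.17, adjusted p = 0.00279, edgeR), where 2.44% of all genes were called higher. Ms4a1, on the same list, reached at most 0.0363 CPM in cKO and 0.0476 CPM in WT. The part of B cell RNA in the 10 genes was not tested. Of 7 monocyte markers 2 averaged at least 1 CPM, as did 1 of 8 neutrophil markers, 2 of 7 dendritic cell markers and 2 of 8 border macrophage markers. Summed levels were 2.43 to 11.02 CPM in cKO and 3.09 to 8.76 CPM in WT for monocytes, and 0.830 to 13.3 CPM in cKO and 1.07 to 3.97 CPM in WT for neutrophils. They were 4.79 to 8.42 CPM in cKO and 4.54 to 7.66 CPM in WT for dendritic cells, and 3.85 to 10.96 CPM in cKO and 23.0 to 67.4 CPM in WT for border macrophages, most of it Siglec1. On the border macrophage list, Mrc1 averaged 0.590 CPM in cKO and 0.728 CPM in WT, and Pf4 1.34 CPM in cKO and 1.63 CPM in WT. Cd163 and Lyve1, also on it, reached at most 0.0940 and 0 CPM in cKO, and 0.0522 and 0.0518 CPM in WT. The highest monocyte and neutrophil sums were those of cKO 5, and Ly6g, a defining neutrophil gene, was at 0 in all 12 libraries. In bulk libraries such as these, fewer cells of a type and less RNA per cell cannot be told apart.

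Levels were compared between genes as CPM per kb of exon, over the union of annotated exons. Tlr2 was the highest of the 10 in both groups, at 88.1 ± 33.5 CPM per kb in cKO and 118 ± 22.3 in WT (SD, n = 6 per group), and 97.3% of all genes tested had a lower level over all libraries. Myd88 followed with 33.4 ± 9.76 CPM per kb in cKO and 36.8 ± 6.79 in WT. The X-linked Tlr13, a sensor of bacterial ribosomal RNA, had 28.0 ± 7.51 CPM per kb in cKO and 25.7 ± 3.75 in WT, and the X-linked Tlr7, a sensor of single-stranded RNA, had 27.0 ± 7.68 in cKO and 23.0 ± 2.57 in WT. The ranges of Tlr13 and Tlr7 overlapped in both groups. Those of Myd88 and Tlr13 overlapped in cKO, with Myd88 above Tlr13 in 3 of 6 libraries, and lay apart in WT.

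Tlr9, a sensor of unmethylated CpG DNA, was at 9.72 ± 4.25 CPM per kb in cKO and 17.9 ± 1.41 in WT, and Tlr1 at 7.03 ± 0.88 in cKO and 9.86 ± 0.64 in WT. In WT the ranges of Tlr9 and Tlr1 lay apart, while in cKO they overlapped, with Tlr9 above Tlr1 in 5 of 6 libraries. Tlr6, Tlr4 and Tlr3 lay between 2.33 and 3.37 CPM per kb on average in both groups, and neighbours among the 3 overlapped. They stood in the order Tlr3, Tlr6, Tlr4 in cKO and Tlr6, Tlr4, Tlr3 in WT. Tlr8 was the lowest, at 0.186 ± 0.145 CPM per kb in cKO and 0.266 ± 0.113 in WT.

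**Figure D1:**
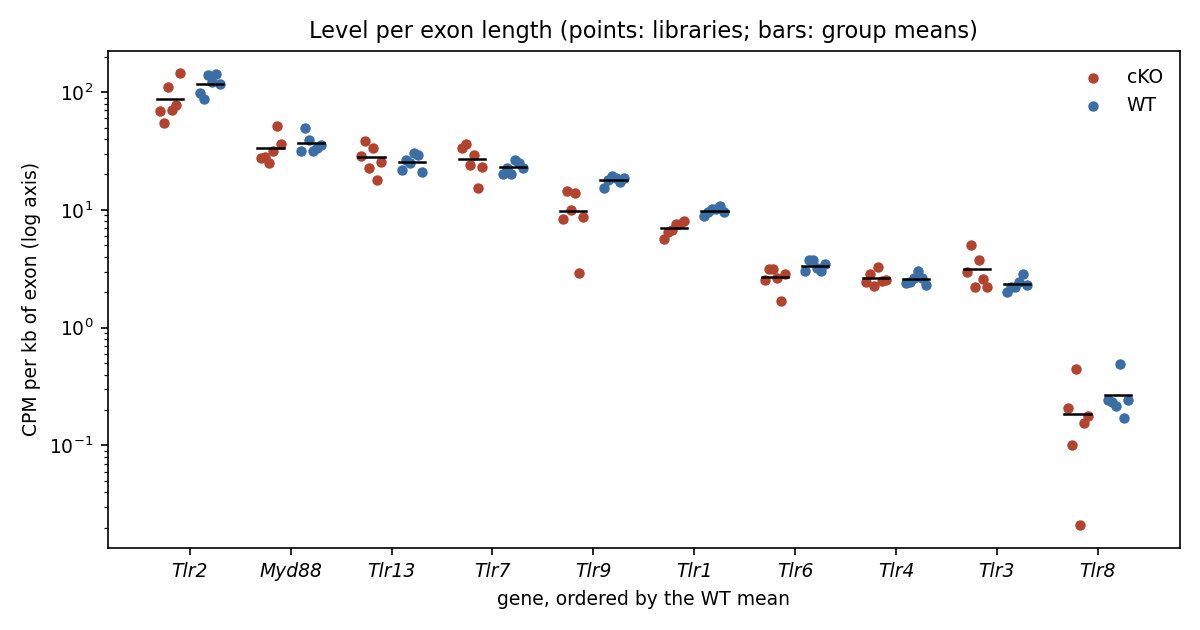
CPM per kb of exon on a log axis for the 9 receptors and Myd88, ordered by the WT mean, with 1 point per library (cKO left, WT right of each gene) and a bar at each group mean. Tlr2 averages 88.1 CPM per kb in cKO and 118 in WT, and Tlr8 lies far below the other genes.

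At the cell surface, Tlr1 (chromosome 5, 64924679 to 64933563, minus strand, mm10), the partner of TLR2 for triacylated lipopeptides, fell in cKO. It stood at 18.9, 21.9, 22.6, 25.3, 25.7 and 26.8 CPM in cKO 1 to 6, against 29.6, 32.1, 34.0, 33.8, 36.0 and 32.4 CPM in WT 7 to 12. All 6 cKO libraries lay below every WT library. The mean was 23.5 ± 2.95 CPM in cKO and 33.0 ± 2.16 CPM in WT (SD, n = 6 per group), which as a log2 fold change, cKO over WT, is -0.49 ± 0.10 (SE, adjusted p = 0.0103, edgeR quasi-likelihood test with Benjamini-Hochberg adjustment over all genes). These levels rest on 402 to 672 reads per cKO library and 614 to 756 per WT library. Thus 1 of the 10 genes was called, and it was lower, where 5.87% of all genes tested were called in either direction and 3.43% were called lower. In 2 of the 10, Tlr1 and Tlr9, the groups lay apart with cKO below WT, where 4.13% of all genes tested did not overlap in either direction and 2.80% lay with cKO below WT.

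The call of Tlr1 held in 20 of 21 other settings, all 12 that left out 1 library among them, where the share of all genes called ran from 2.75% to 30.9%. It ended without cKO 1, 2 and 4 together, where 3.65% of all genes were called and Tlr1 had -0.38 ± 0.10 on the log2 scale (adjusted p = 0.0713, edgeR, range over all settings 0.000147 to 0.0713). Tlr1 shares 13.6% of its 50-base windows with the neighbouring paralogue Tlr6, so that the counting, whose handling of such reads is not stated in the sources used here, could have moved reads between the 2 genes.

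Tlr6 (chromosome 5, 64952031 to 64960097, minus strand), the partner of TLR2 for diacylated lipopeptides, had 9.45, 11.8, 11.8, 9.92, 6.24 and 10.6 CPM in cKO 1 to 6, against 11.2, 13.9, 14.1, 12.1, 11.2 and 12.8 CPM in WT 7 to 12. The groups overlapped, with 4 of 6 cKO libraries below every WT library and cKO 5 the lowest. Its log2 fold change was -0.33 ± 0.15 (adjusted p = 0.183, edgeR). Tlr6 passed only in limma-voom with sample weights (adjusted p = 0.0424), where 30.9% of all genes were called.

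Tlr2 (chromosome 3, 83836272 to 83841767, minus strand), the shared chain of both pairs, had 208, 166, 336, 211, 235 and 435 CPM in cKO 1 to 6, against 297, 263, 423, 368, 433 and 354 CPM in WT 7 to 12. The cKO libraries fell into 4 below every WT library and 2, cKO 3 and cKO 6, within or above the WT range. For Tlr2 the log2 fold change was -0.42 ± 0.22 (adjusted p = 0.258, edgeR), and it passed without cKO 6 (-0.65 ± 0.18, adjusted p = 0.0465), where 9.29% of all genes were called. Tlr2 also passed in limma-voom with sample weights (adjusted p = 0.0178), where 30.9% of all genes were called. With the CNS marker component as a covariate its log2 fold change was -0.16 ± 0.18, and it was -0.07 ± 0.19 without cKO 1, 2 and 4.

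Tlr4 (chromosome 4, 66827584 to 66930284, plus strand), the lipopolysaccharide receptor, had 13.6, 15.96, 12.6, 18.1, 13.9 and 14.0 CPM in cKO 1 to 6, against 13.4, 13.5, 14.6, 17.0, 14.8 and 12.8 CPM in WT 7 to 12. Both groups spanned nearly the same range. Its log2 fold change was 0.04 ± 0.11 (adjusted p = 0.888, edgeR), and its sign turned without cKO 4 and in 2 other settings.

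**Figure D2:**
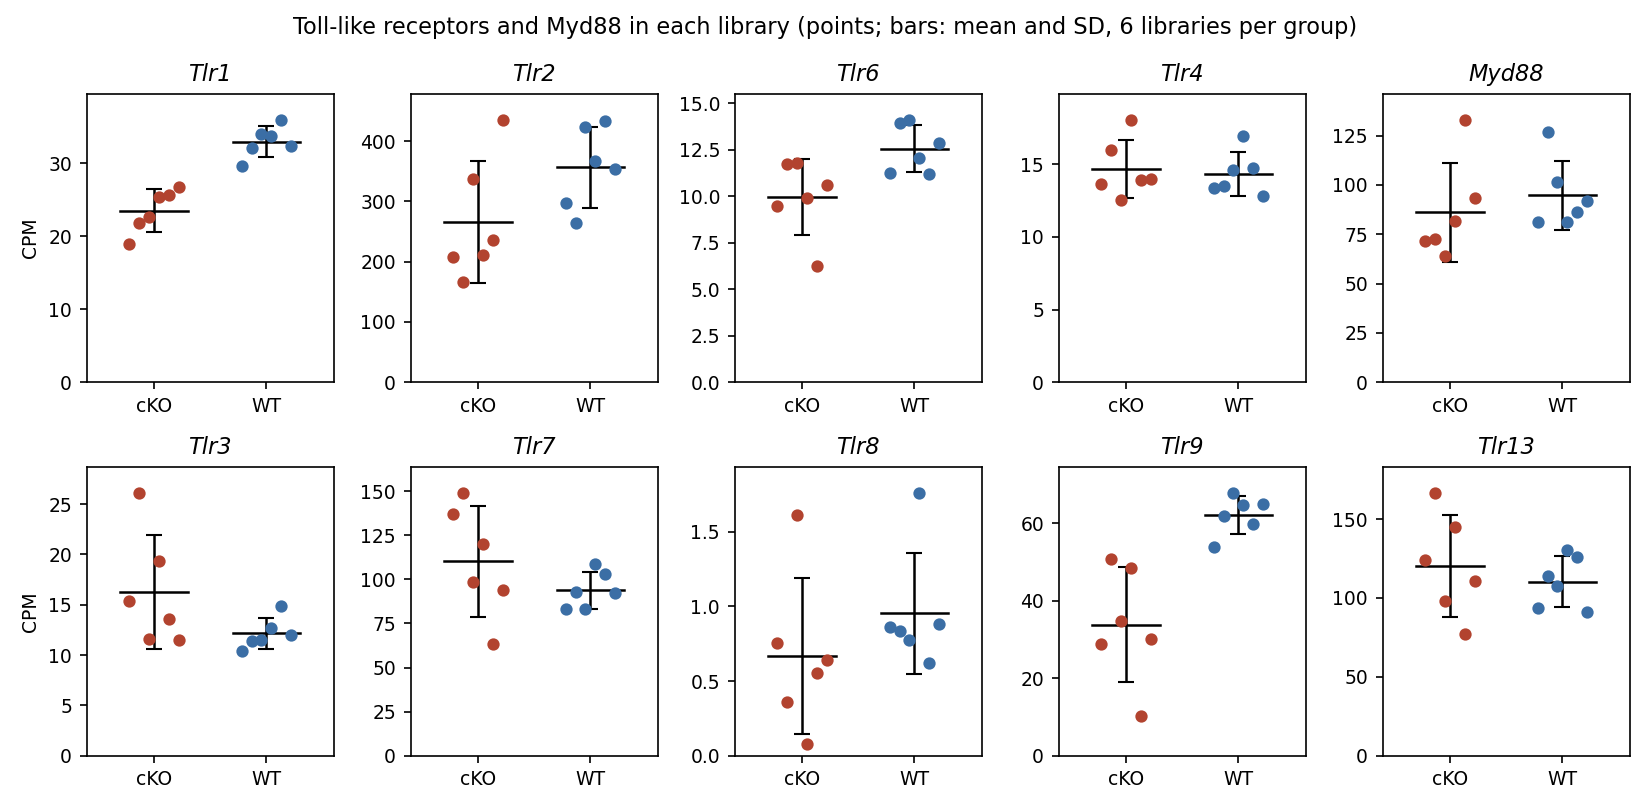
CPM of each of the 10 genes in each library, cKO left of WT, on linear axes that start at 0, with bars at the mean and SD of 6 libraries per group. The cKO points of Tlr1 and Tlr9 all lie below the WT points, and those of the other 8 genes overlap them.

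Among the endosomal receptors, Tlr9 (chromosome 9, 106222598 to 106226883, plus strand) had 28.9, 50.7, 34.6, 48.4, 10.2 and 29.999 CPM in cKO 1 to 6, against 53.8, 61.8, 67.7, 64.7, 59.7 and 65.0 CPM in WT 7 to 12. No cKO library reached the lowest WT library, and cKO 5 was the lowest by a wide margin. The mean was 33.8 ± 14.8 CPM in cKO and 62.1 ± 4.92 CPM in WT (SD, n = 6 per group), with a coefficient of variation of 43.7% in cKO and 7.92% in WT. At -0.88 ± 0.27, its log2 fold change did not pass (adjusted p = 0.0734, edgeR).

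Tlr9 passed in 5 of 21 other settings: without cKO 5 (-0.69 ± 0.15, adjusted p = 0.00995), without cKO 1, 2 and 4 together (-1.31 ± 0.29, 0.0275), with the CNS marker component (-1.29 ± 0.29, 0.0196), in limma-voom with sample weights (0.00254) and in DESeq2 (0.0185). Of all genes, 18.6% were called without cKO 5, 6.49% with the component, 30.9% by limma-voom and 12.3% by DESeq2. Over all settings its log2 fold change ran from -1.31 to -0.69. The border macrophage sum was, like Tlr1 and Tlr9, lower in every cKO library than in any WT library. On that list Siglec1 was called lower (log2 fold change -3.06 ± 0.38, adjusted p = 0.000404, edgeR), where 3.43% of all genes tested were called lower. Cbr2, not tested, averaged 0.117 CPM in cKO and 0.683 CPM in WT, also without overlap. Of all genes tested, 2.80% lay apart with cKO below WT. F13a1 averaged 0.182 CPM in cKO and 0.464 CPM in WT, Mrc1 and Pf4 did not pass, and Cd163 and Lyve1 were near 0 in both groups. The part of border macrophage RNA in the results for Tlr1 and Tlr9 was not tested. The library with the lowest Tlr9, cKO 5, also had the lowest microglial sum and the highest monocyte and neutrophil sums, and the part of these in Tlr9 was not tested. None of the 50-base windows of Tlr9 is found in a transcript of another gene, and none of its exons overlaps another.

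**Figure D3:**
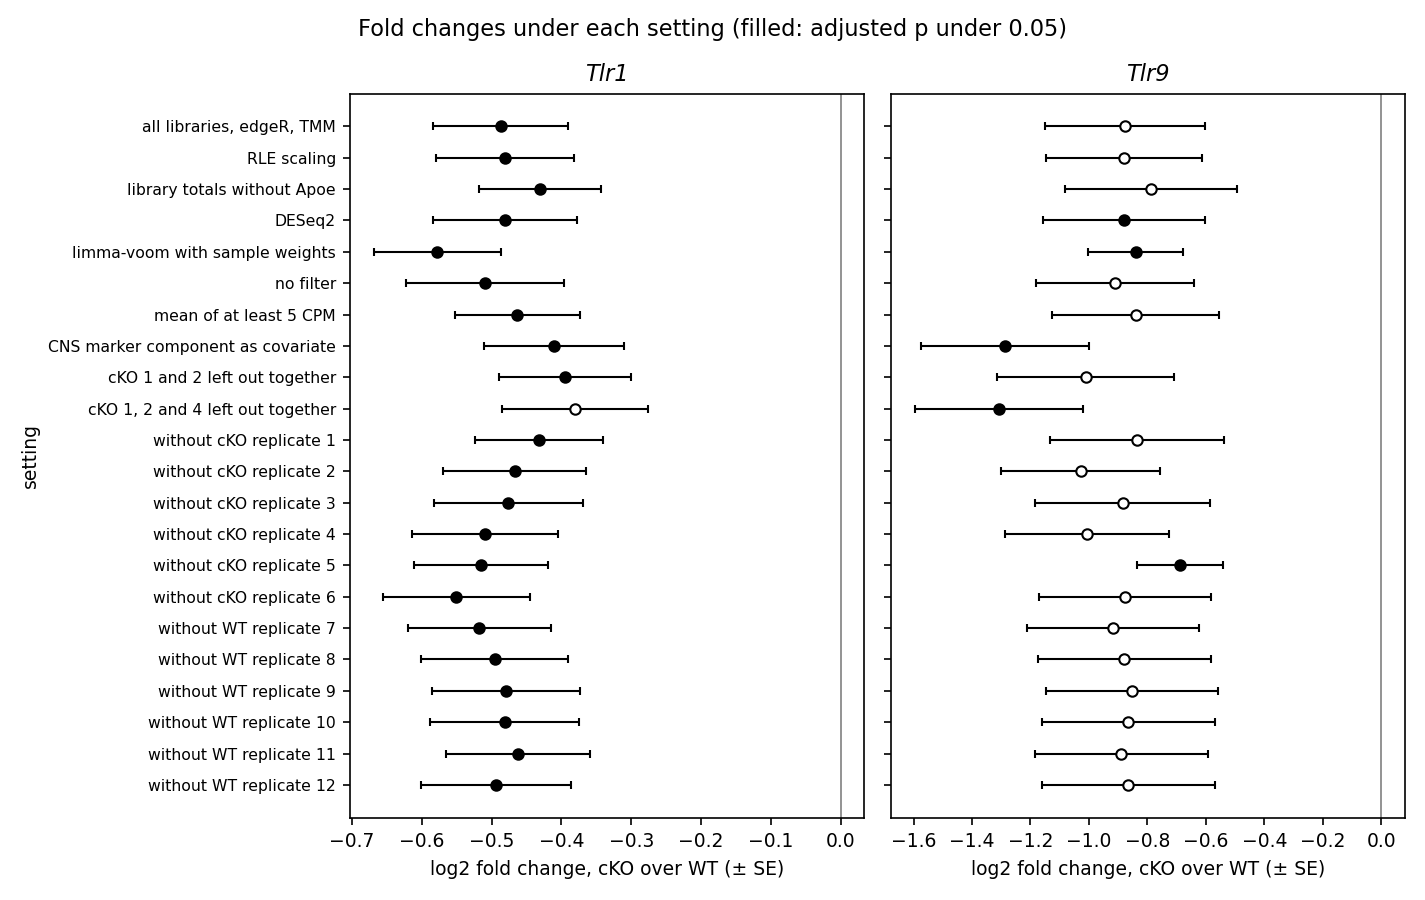
Log2 fold change of cKO over WT with its SE for Tlr1 (left) and Tlr9 (right) in the reported fit, at the top, and under each of the 21 other settings, with filled points at an adjusted p under 0.05. All points lie below 0, between -0.58 and -0.38 for Tlr1 and between -1.31 and -0.69 for Tlr9.

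Tlr7 (X chromosome, 167304929 to 167330558, minus strand) had 137, 149, 98.8, 120, 63.2 and 93.8 CPM in cKO 1 to 6, against 83.0, 92.9, 82.9, 109, 103 and 92.3 CPM in WT 7 to 12. The cKO libraries lay on both sides of the WT range, with cKO 1, 2 and 4 above it and cKO 5 below it. On the log2 scale Tlr7 differed by 0.23 ± 0.17 (adjusted p = 0.463, edgeR), and the sign turned without cKO 1, 2 and 4 (-0.12 ± 0.14) and with the CNS marker component (-0.10 ± 0.12). Tlr7 passed, as higher in cKO, only in limma-voom with sample weights (adjusted p = 0.0267), where 30.9% of all genes were called.

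Tlr13 (X chromosome, 106143204 to 106160493, plus strand) had 124, 166, 98.2, 145, 77.0 and 111 CPM in cKO 1 to 6, against 93.9, 114, 107, 130, 126 and 91.1 CPM in WT 7 to 12. Here too cKO 5 lay below the WT range, and cKO 2 and cKO 4 above it. Tlr13 differed by 0.12 ± 0.17 on the log2 scale (adjusted p = 0.723, edgeR), and it turned to -0.16 ± 0.13 with the CNS marker component and to -0.20 ± 0.14 without cKO 1, 2 and 4. Among the cKO libraries, those with the highest Tlr7 and Tlr13, cKO 2, 4 and 1, also had the highest summed microglial markers, 19173, 19879 and 15740 CPM. The lowest sum was that of cKO 5. In cKO 3 and cKO 6 the sums, 13554 and 14933 CPM, also exceeded every WT sum, while both genes lay within the WT range. The part of the microglial sums in the 2 genes was not tested.

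Tlr3 (chromosome 8, 45395665 to 45411080, minus strand), the sensor of double-stranded RNA, had 15.4, 26.1, 11.6, 19.4, 13.6 and 11.5 CPM in cKO 1 to 6, against 10.4, 11.4, 11.5, 12.7, 14.9 and 11.96 CPM in WT 7 to 12. The 3 libraries above the WT range were cKO 1, 2 and 4, those with the highest CNS marker component. The same libraries had the highest summed microglial markers, 15740, 19173 and 19879 CPM. The part of either in Tlr3 was not tested. The log2 fold change was 0.42 ± 0.19 (adjusted p = 0.197, edgeR), against 0.05 ± 0.13 with the component and 0.03 ± 0.14 without those 3 libraries. Tlr3 overlaps the antisense gene Gm45542 over 381 exon bases, and the strand setting of the counting is not stated in the sources used here.

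Tlr8 (X chromosome, 167242696 to 167264329, minus strand), next to Tlr7, was the lowest of the 10, with 0.752, 0.363, 1.61, 0.0754, 0.557 and 0.642 CPM in cKO 1 to 6, against 0.864, 0.836, 0.773, 1.76, 0.619 and 0.880 CPM in WT 7 to 12. These are raw counts of 2 to 34 in cKO and 13 to 37 in WT. The 2 counts were those of cKO 4, which lay below the floor of 3 counts, and every other library lay above it. The groups overlapped, and the difference of -0.55 ± 0.48 in log2 (adjusted p = 0.543, edgeR) has an SE nearly as large as itself. The SD of log2 CPM between libraries was 1.11 in cKO and 0.47 in WT.

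Myd88 (chromosome 9, 119335934 to 119341411, minus strand) had 71.6, 72.9, 63.9, 81.6, 133 and 93.4 CPM in cKO 1 to 6, against 81.1, 127, 102, 81.0, 86.3 and 92.0 CPM in WT 7 to 12. Its cKO libraries lay below, within and above the WT range, and the highest of all was cKO 5, the library with the lowest Tlr9, Tlr7, Tlr13 and Tlr6. Between the groups Myd88 differed by -0.14 ± 0.17 on the log2 scale (adjusted p = 0.695, edgeR). The sign turned without cKO 1, 2 and 4 (0.053 ± 0.21) and with the CNS marker component (0.065 ± 0.16), and the difference was -0.31 ± 0.13 without cKO 5 (adjusted p = 0.113) and -0.04 ± 0.17 without WT 8. Myd88 shares 290 exon bases with Acaa1a on the other strand.

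Some of the genes departed from the WT mean in the same cKO libraries, as Tlr7 and Tlr13 did, and others in other libraries. In cKO 5, Tlr9 lay 2.59 below the WT mean on the log2 scale, Tlr6 0.99, Tlr8 0.62, Tlr2 0.58, Tlr7 0.56, Tlr13 0.51, Tlr1 0.36 and Tlr4 0.04 below it. Myd88 lay 0.51 and Tlr3 0.17 above it. In cKO 2, Tlr2 lay 1.08 below the WT mean, while Tlr3 lay 1.11, Tlr7 0.67 and Tlr13 0.60 above it. The SD of log2 CPM was larger in cKO than in WT for all 10 genes, as it was for 81.1% of all genes tested.

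**Figure D4:**
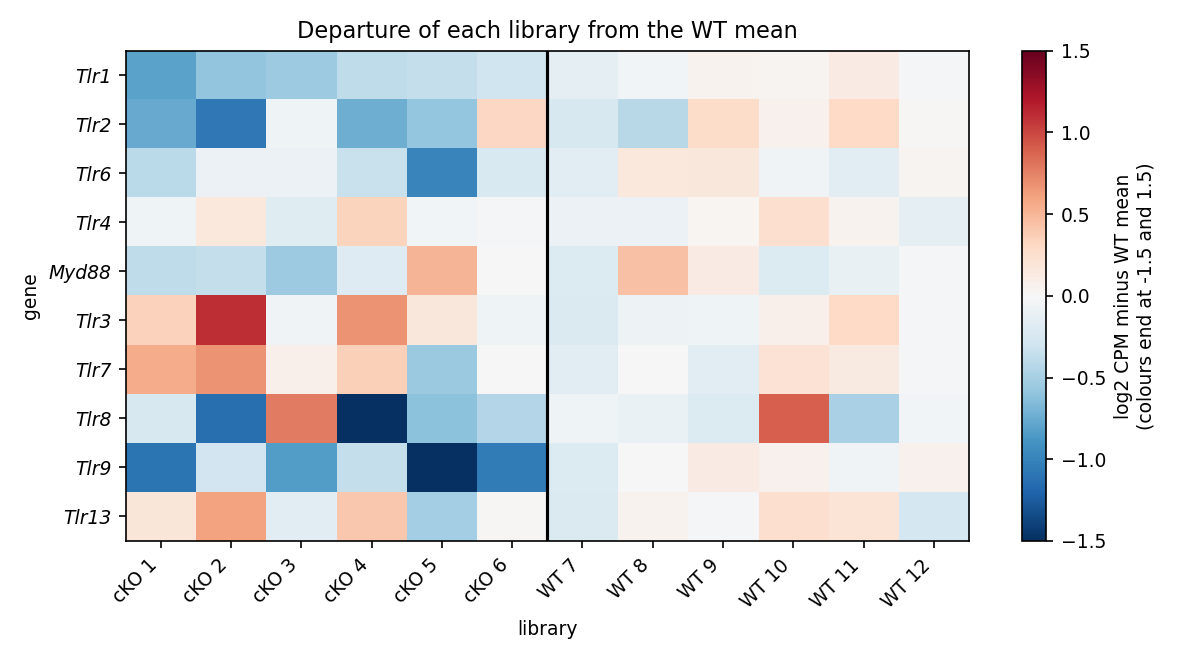
Log2 CPM of each gene (rows) in each library (columns, cKO left of the line and WT right of it) minus the WT mean of that gene, with colours that end at -1.5 and 1.5. The row of Tlr1 is below the WT mean in all 6 cKO libraries, as is that of Tlr9, and that of Tlr7 is above it in 5 of 6 and at -0.56 in cKO 5.

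Of the 10 log2 fold changes 6 were negative and 4 positive, with a median of -0.24, against a median of 0.03 and 45.4% negative over all genes tested. The genes nearest to Tlr1 in pattern were taken by the smallest root-mean-square distance of centred log2 CPM over the 12 libraries among the 10368 genes that averaged 5 CPM or more. They were B3gnt2, a glycosyltransferase gene, at 0.10, Gm5763 at 0.11 and Sdcbp, which encodes the scaffold protein syntenin, at 0.11, where Tlr1 itself departed from its own mean by 0.28. This likeness takes in the difference between the groups, so their log2 fold changes are no separate result, at -0.40 for B3gnt2, -0.54 for Gm5763 and -0.45 for Sdcbp.

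The other mouse Toll-like receptor genes are Tlr5, a sensor of flagellin, and Tlr11 and Tlr12, sensors of the parasite protein profilin. Both tested genes of the 3 were called lower, where 3.43% of all genes tested were called lower. Tlr12 (chromosome 4, 128615443 to 128618619) stood at 28.1, 34.3, 39.3, 37.0, 34.8 and 45.7 CPM in cKO 1 to 6, against 53.4, 67.8, 76.6, 50.4, 51.0 and 51.7 CPM in WT 7 to 12. Tlr12 did not overlap between the groups, where 2.80% of all genes tested lay apart with cKO below WT. Its log2 fold change was -0.68 ± 0.14 (adjusted p = 0.0109, edgeR), and its call ended without cKO 1 and 2 (-0.58, adjusted p = 0.0539) and without cKO 1, 2 and 4 (-0.53, adjusted p = 0.0882).

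Tlr11 (chromosome 14, 50357914 to 50363663) was rare, at 0.188 to 0.597 CPM in cKO and 0.741 to 1.70 CPM in WT, with raw counts of 4 to 15 in cKO and 18 to 33 in WT. Its log2 fold change was -1.55 ± 0.28 (adjusted p = 0.00630, edgeR), and its call ended without cKO 1, 2 and 4 (adjusted p = 0.0591). Tlr5 did not pass the filter, with 1.504, 2.36, 0.854, 1.66, 0.0398 and 0.593 CPM in cKO 1 to 6, against 0.247, 0.261, 0.155, 0.333, 0.0476 and 0.207 CPM in WT 7 to 12. With no filter on low counts it was higher in cKO by 2.42 ± 0.61 on the log2 scale (adjusted p = 0.0428, edgeR, where 3.02% of all genes were called), from raw counts of 1 to 65 in cKO and 1 to 7 in WT. The highest levels of Tlr5 were in cKO 2, 4 and 1, the libraries with the highest CNS marker component, and cKO 5 had 1 count. The part of this in the difference was not tested.

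Of 83 other genes of the pathway 76 were tested, of which 1 rose, 3 fell (Tlr11 and Tlr12 among them) and 72 did not pass. These 4 calls among 76 are near the 5.87% called over all genes tested. The median log2 fold change of the 76 was -0.09, against 0.03 over all genes. None of 7 co-receptors and ligand carriers passed. Cd14, which hands lipopolysaccharide to TLR4, had a log2 fold change of 0.22 ± 0.16, and Ly96, the TLR4 subunit MD-2, had -0.35 ± 0.17. Ly86, the partner of the receptor homologue CD180, had 0.44 ± 0.19 and Lbp, which binds lipopolysaccharide in plasma, had -0.86 ± 0.37 (adjusted p from 0.178 to 0.442 over these 4, edgeR).

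None of 10 genes of folding, traffic and endosomal processing passed. The chaperone gene Cnpy3 had a log2 fold change of -0.22 ± 0.09, Slc15a4, an endolysosomal transporter needed for TLR7 and TLR9 responses, had -0.30 ± 0.14, and Ap3b1, a subunit of a trafficking adaptor, had -0.14 ± 0.08. Ctsb, a protease of the endolysosome, had 7446 ± 2736 CPM in cKO and 11354 ± 1913 CPM in WT (SD, n = 6 per group), a log2 fold change of -0.61 ± 0.22. Adjusted p over the 4 ran from 0.117 to 0.294 (edgeR).

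Of 18 adaptor and kinase genes, 1 rose and 17 did not pass. Ube2n, the ubiquitin-conjugating enzyme that works with TRAF6, stood at 17.4 ± 1.72 CPM in cKO and 13.03 ± 1.002 CPM in WT (SD, n = 6 per group). Its level was higher in every cKO library than in any WT library, where 4.13% of all genes tested did not overlap in either direction. Its log2 fold change was 0.42 ± 0.10 (adjusted p = 0.0219, edgeR), where 2.44% of all genes were called higher, and the call was lost without cKO 4 or without WT 7, 8, 9 or 12, without cKO 1 and 2, without cKO 1, 2 and 4 and with no filter, with adjusted p up to 0.0961 over the settings. The log2 fold change itself stayed between 0.38 and 0.48 in all 21. Ticam1 had -0.30 ± 0.10 (adjusted p = 0.0834), Irak2, a kinase recruited by MyD88, -0.30 ± 0.16 and Tab1, an activator of the kinase TAK1, -0.23 ± 0.09, none of which passed.

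Of 16 negative regulators, 1 fell and 15 did not pass, where 3.43% of all genes tested were called lower. Their median log2 fold change was -0.22, against 0.03 over all genes. Zc3h12a, the ribonuclease Regnase-1 that degrades cytokine transcripts, had 13.5, 13.4, 17.6, 13.99, 16.8 and 26.7 CPM in cKO 1 to 6, against 21.1, 28.1, 33.3, 24.8, 25.99 and 25.6 CPM in WT 7 to 12. Only cKO 6 reached the WT range. The log2 fold change was -0.64 ± 0.17 (adjusted p = 0.0444, edgeR), and of the 12 fits that left out 1 library the call held in 3, which lacked cKO 5, cKO 6 or WT 7. Without cKO 1 and 2 it was -0.50 (adjusted p = 0.189), without cKO 1, 2 and 4 -0.36 (0.292), and with the CNS marker component -0.39 (0.0852). Tnip1, an inhibitor of NF-kB, had -0.53 ± 0.15 (adjusted p = 0.0600), Tollip -0.22 ± 0.08 and Lyn, a Src family kinase, 0.27 ± 0.10, none of which passed.

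None of 11 transcription factors passed, Irf5, whose product binds MyD88, at -0.11 ± 0.10, Irf7 at -0.55 ± 0.33, Jun at -0.20 ± 0.14 and Fos at 0.57 ± 0.20 among them. Of 18 cytokine and effector genes 12 were tested and none passed, with a median log2 fold change of 0.24. Tnf averaged 4.08 ± 2.35 CPM in cKO and 7.21 ± 2.24 CPM in WT (SD, n = 6 per group), and its log2 fold change was -0.82 ± 0.35. Il1b averaged 28.5 ± 25.8 CPM in cKO and 11.9 ± 3.40 CPM in WT, and its log2 fold change was 1.26 ± 0.48 (adjusted p = 0.135, edgeR). It passed with the CNS marker component (1.84 ± 0.22, adjusted p = 0.000291), without cKO 1, 2 and 4 (1.996 ± 0.34, 0.00900) and in DESeq2 (0.0499). It was far smaller in limma-voom with sample weights (0.18 ± 0.32, adjusted p = 0.692) and was 0.75 ± 0.42 without cKO 5 (adjusted p = 0.222, edgeR). Ccl4 had 0.55 ± 0.42 and Nfkbiz -0.23 ± 0.16, and without cKO 1, 2 and 4 Ccl4 passed at 1.18 ± 0.16 (adjusted p = 0.00152). Exons of Ctsb, Slc15a4, Irak2, Lyn, Irf5, Irf7, Jun and Il1b overlap those of another gene, so that their counts are uncertain to that extent.

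**Figure D5:**
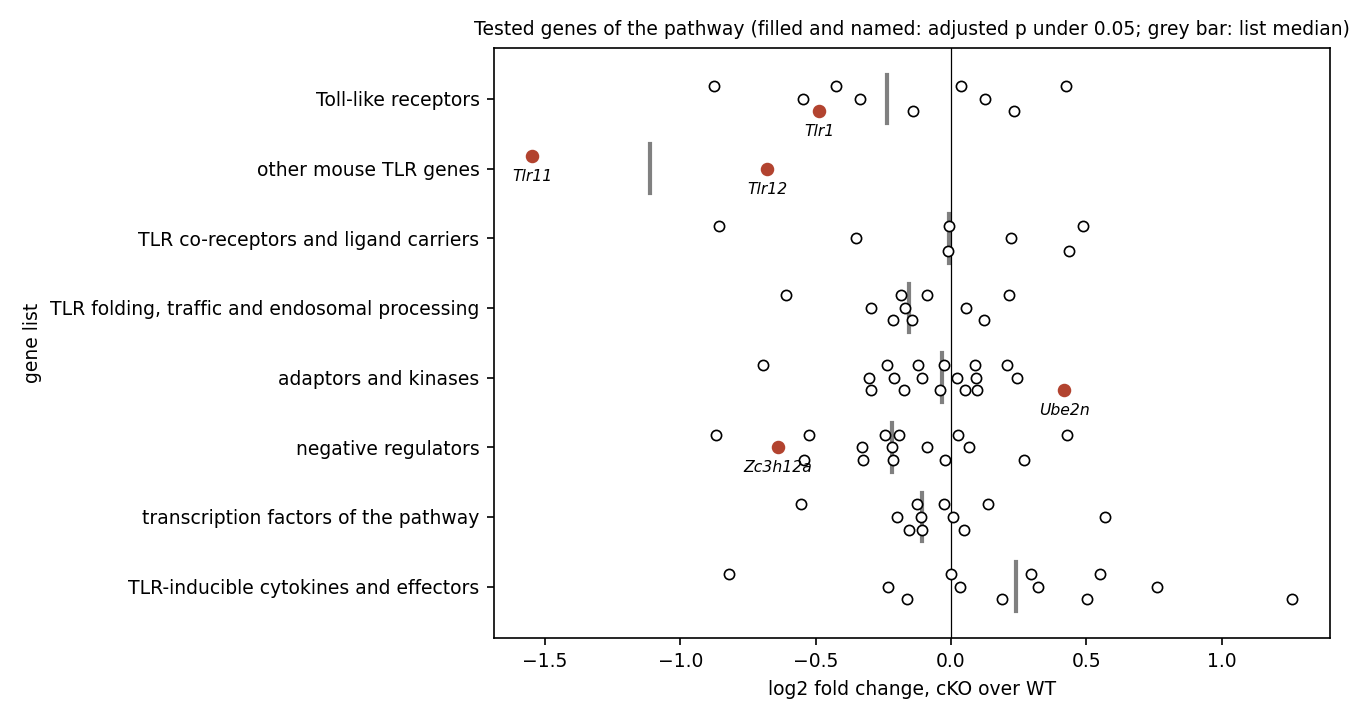
Log2 fold change of cKO over WT for every tested gene of the Toll-like receptors and of 7 lists of the pathway, 1 row per list, with filled and named points at an adjusted p under 0.05 and a grey bar at the list median. Tlr1, Tlr11, Tlr12 and Zc3h12a lie left of 0, Ube2n lies right of it, and the open points of the other genes lie on both sides.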

How the data were processed

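The authors deposited 1 table of raw counts for 39017 Ensembl gene IDs, whole numbers, with a column for each of the 12 libraries. Per the submitters' processing notes, bcl2fastq 2.17, FastQC and Trimmomatic were used, with the build mm10. Per the labels' protocols, the mRNA library kit was stranded. How reads were aligned and counted, on which strand and against which annotation is not given in the sources used here, so reads shared by paralogues or overlapping genes may have been split or dropped.

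From these counts, filterByExpr kept 15015 genes, which were scaled by TMM and tested with edgeR 4.0.16 (quasi-likelihood, robust, R 4.3.3) on all 12 libraries without covariates. A call is a Benjamini-Hochberg adjusted p under 0.05 over all genes. The SE was derived from the fold change and the F statistic. CPM use TMM-scaled totals and log2 CPM a prior count of 2. The test was run on simulated data in which both groups had the same spread. That check does not cover the larger spread of cKO seen in these libraries. The floor of 3 counts covers counting error only. Library pairs were checked for duplicates, and none was found (smallest chi-square over degrees of freedom 24.4).

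Alternatives were RLE scaling, totals without Apoe (0.435% to 6.59% of counts in cKO, 8.36% to 15.9% in WT), DESeq2 1.42.0, limma-voom (3.58.1) with sample weights, no filter, only genes averaging 5 CPM or more, the CNS marker component as a covariate, and omitted libraries. The 10 genes, the lists and the alternatives were chosen with earlier results of these data known. Named beside the 10 are Kdm6a, up to 4 tested genes of smallest p per pathway list and the 3 genes nearest in pattern to each called member. Single marker genes and Tlr5 were named after their values had been seen.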

Additional observations from a re-analysis of the deposited data

Results flagged for a closer look

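Across the named genes, 72 groups of 6 libraries were checked for a library far from the other 5 (gap over range above 0.625), where chance alone gives about 1 in 20. Tlr8 stood at 1.76 CPM in WT 10, while the other WT libraries lay between 0.619 and 0.880 CPM. Zc3h12a stood at 26.7 CPM in cKO 6, against 13.4 to 17.6 CPM in the other cKO libraries. Lyn stood at 372 CPM in WT 11, where the others lay between 337 and 350.1 CPM. Jun stood at 97.9 CPM in cKO 5, where the other cKO libraries lay between 57.8 and 69.5 CPM.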

How the results depend on the processing

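No paired analysis was possible because the replicate numbers of cKO and WT are not shared. Genes called numbered 882, and 1843 by DESeq2, 4638 by limma-voom with sample weights, 416 without cKO 1 and 2, 557 without cKO 1, 2 and 4, and 460 to 2818 with 1 library left out, highest without cKO 5 and lowest without WT 9. The count moved by over 1.5 times without cKO 1 (518), cKO 4 (545), cKO 5 (2818), cKO 6 (1410), WT 8 (575), WT 9 (460), WT 11 (532) or WT 12 (470). Of the 10 genes described, 1 was called, and 2 by DESeq2 (where 12.3% of all genes were called), 6 by limma-voom (30.9%), 2 with the CNS marker component (6.49%) and 1 to 2 with 1 library left out (2 without cKO 5, 18.6%, and without cKO 6, 9.29%). The 6 by limma-voom were Tlr1, Tlr2, Tlr3, Tlr6, Tlr7 and Tlr9. Signs turned in log2 fold changes that no fit with the turned sign called: Tlr4 to -0.063 with the component, -0.069 without cKO 1, 2 and 4 and -0.032 without cKO 4 (range -0.032 to 0.089 with 1 library left out). With the component and without cKO 1, 2 and 4, Tlr7 turned to -0.10 and -0.12, Tlr13 to -0.16 and -0.20 (-0.035 without cKO 1 and 2) and Myd88 to 0.065 and 0.053. Ccl4 turned to -0.0087 with limma-voom. Of 209 other fits of the 10 genes, 188 kept sign and side of the threshold, 10 passed where the reported fit did not, 1 lost its call and 10 turned sign. The causes were not tested.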

Other observations

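Within each library, the ratio of Tlr9 to Tlr7 (CPM per kb) does not depend on the scaling between libraries. It was 0.248, 0.400, 0.412, 0.473, 0.190 and 0.376 in cKO 1 to 6, against 0.761, 0.781, 0.958, 0.698, 0.682 and 0.827 in WT 7 to 12. The groups did not overlap, as they did not for Tlr9 alone, and cKO 5, low in both genes, was also the lowest in the ratio. The ratio of Tlr9 to Tlr13 was likewise apart, at 0.164 to 0.436 in cKO and 0.588 to 0.882 in WT. The ratio of Tlr13 to Tlr7, the 2 X-linked RNA sensors, was 0.859 to 1.15 in cKO and 0.937 to 1.23 in WT, and the groups overlapped. At the surface, the ratio of Tlr1 to Tlr2 was 0.0554 to 0.118 in cKO and 0.0725 to 0.110 in WT, also with overlap. The ratios of Tlr6 to Tlr2, of Tlr1 to Tlr6 and of Tlr12 to Tlr13 overlapped between the groups as well. No share over other pairs of genes was taken. These ratios were chosen after the values had been seen and were not tested.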
